A study of Rattus norvegicus with 2 samples.

Results

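Cytosolic ribosomal proteins are the protein components of the ribosomes that translate nuclear messenger RNAs, and their genes were described here in rat hippocampal neural stem cells exposed to sevoflurane, an inhaled general anaesthetic. The members were all genes whose current rat symbol starts with Rpl or Rps followed by a digit, together with Rplp0, Rplp1, Rplp2 and Rpsa, that had a probe with a matching RefSeq mRNA accession on both arrays. Genes of the Rps6k kinases were left out. The rule used no measured value. It gave 78 probes of 76 genes, out of 13888 genes with a named mRNA probe, and 47 of the 76 genes encode proteins of the large subunit and 29 of the small subunit. Of the 76 genes, 74 had a probe well above background on both arrays, out of 10028 such genes in all, and these are called measured below.

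The cells were neural stem cells of the hippocampus of Sprague-Dawley rats of postnatal day 3, grown in serum-free medium with the growth factor bFGF at 5% CO2 and used at passage 3. One culture condition received 2.4% sevoflurane for 6 h and the control received 0% sevoflurane for 6 h, and both then spent 24 h in an ordinary incubator, although other labels name only the 6 h time point. Total RNA of each condition was hybridised to 1 array (Cy3, 1 colour), so no difference below has a replicate check and no p-value is given. The sources used here do not settle whether an array holds RNA of 1 culture or of a pool, the labels name no genotype or sorting step, and the arrays were scanned on different days, so a scan effect and the exposure cannot be told apart.

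Each ribosome consists of a small subunit, which reads the messenger RNA, and a large subunit, which joins the amino acids. One copy of nearly every ribosomal protein is needed per ribosome, and the genes are therefore transcribed at high and similar rates in growing cells. Many of their messenger RNAs begin with a 5′ terminal oligopyrimidine (TOP) tract, a C followed by several C or T bases, through which the kinase mTOR controls their translation. Some free ribosomal proteins, Rpl5 and Rpl11 among them, bind Mdm2 and thereby stabilise p53 when ribosome assembly is disturbed.

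The scanner signals of the ribosomal protein genes were nearly the same on both arrays, while most other genes were dimmer with sevoflurane. Summed over the 74 measured members, the processed signal was 2072683 units with sevoflurane against 1957341 in control. Summed over the other measured genes it was 10214742 against 18092432 units, and before any scaling the median difference of all measured genes, sevoflurane minus control on the log2 scale, was -0.68. The members thus held 16.9% of the summed signal of measured genes with sevoflurane and 9.76% in control, a comparison within each array that needs no scaling between arrays. Over all 24629 usable probes, non-coding ones included, the shares were 11.4% and 7.08%. The share weights each probe by its own brightness, so it is a property of these probes and not a share of transcripts. Before scaling, 51 members were brighter and 23 dimmer with sevoflurane, and 59 of the 74 differed by no more than 1.25-fold.

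Relative to the other genes, the members were therefore higher in the sevoflurane sample, but whether they were higher in absolute terms depends on how the arrays are put on 1 scale. In the chosen setting each array was scaled by its 75th percentile over probes, 363 signal units for sevoflurane and 692 for control. The signal distributions also differed in shape, since 20580 probes were well above background with sevoflurane and 16450 in control. On this scale the median difference of the 74 members was 1.02, with quartiles of 0.89 and 1.19, against a median of 0.25 and quartiles of -0.43 and 1.14 over all 10028 measured genes. Of the members, 42 were higher by at least 2-fold (1 log2 unit) and 0 were lower, where 27.9% of all measured genes were higher and 11.5% lower by that rule. Rpl15 alone was below 0. The threshold runs through the middle of the members, 67 of which lay between 0.6 and 1.5.

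Median scaling over all probes, the counterpart of the chosen setting, reversed the direction of the members' median, which was then -0.06. In it 42 of the 74 members were below 0, 2 were at least 2-fold higher and 1 lower (10.4% and 43.7% of all genes). The same scaling put the median of all measured genes at -0.84, so the members still lay 0.77 above it. Without scaling the counts were also 2 and 1 (12.6% and 38.1% of all genes), and the median was 0.09. When the median was taken over probes well above background, a version added after the reversal had been seen, the members' median was 0.85 with 20 higher and 0 lower (24.3% and 14.7% of all genes). With the 75th percentile over those probes it was 1.16, with 57 higher and 0 lower (30.9% and 9.49%). Normexp, another background correction, gave 28 higher and 0 lower (22.7% and 8.58%).

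After quantile normalization the members' median was 0.29, with 5 higher and 0 lower by at least 2-fold (13.6% and 19.6% of all genes). After a correction for the trend of the difference with level it was 0.41, with 7 higher and 0 lower (14.8% and 15.8%). In the authors' deposited table the median was 0.29, with 5 members higher and 0 lower, where 13.6% of genes were higher and 19.2% lower. The members lay above the median of all genes by 0.39, 0.42 and 0.39 in these 3 settings. Over all genes the split moved with the scaling too, from 2801 higher and 1154 lower to 1368 and 1968 after quantile normalization and to 1040 and 4379 after median scaling over all probes. Counted over every setting in which the arrays were scaled, 32 of 74 members were above 0 throughout. Set against the median of all genes in the same setting, 63 of 74 were above it in every setting run. Scalings that shift each array by 1 constant cannot change this, and the distance of the medians was 0.77 in each of them. Only the other settings could alter that count.

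**Figure D1:**
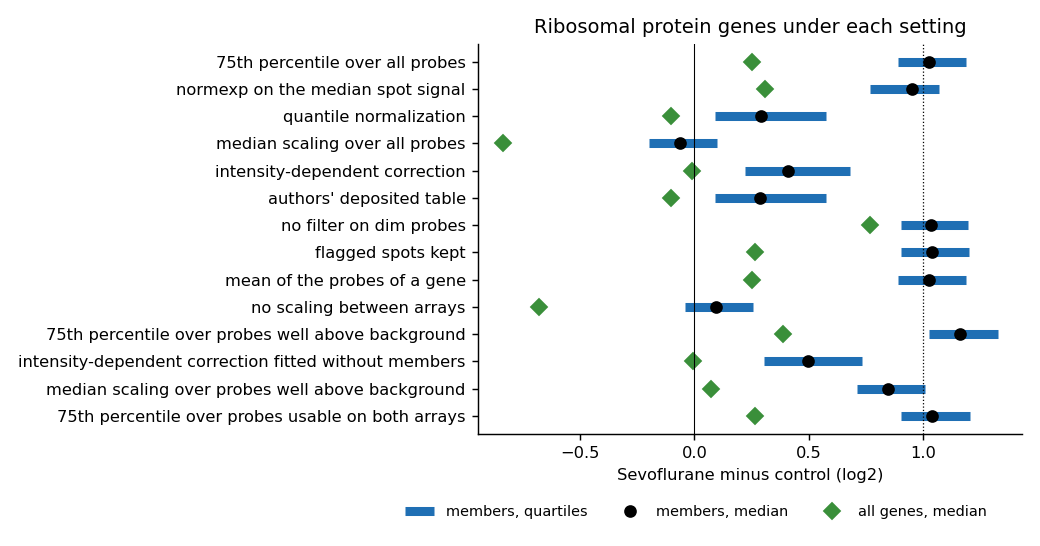
Median (black points) and quartiles (blue bars) of the differences of the ribosomal protein genes, sevoflurane minus control on the log2 scale, under each processing setting, with the median of all measured genes (green diamonds). The members' median runs from -0.06 under median scaling over all probes to 1.16, and it lies to the right of the median of all genes in every setting shown. Scalings that shift each array by 1 constant cannot change the distance between these medians.

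The members sit at the bright end of the array. The difference varied with level over all measured genes. In the dimmest 2 bins of 10% of genes its median was 1.68 and 1.29, and in bins 7 to 9 it was -0.157, -0.148 and -0.155. The lower quartile of the dimmest bin was 1.004, so most of its genes count among the 27.9% that were higher. Of the 74 members, 65 belonged to the brightest 10% of measured genes by mean level, in which the median difference over all 1003 genes was 0.12. The 65 members in that bin had a median of 1.02 (SD 0.22 over genes) and ranged from 0.60 to 1.76. The 938 other genes of the bin had a median of 0.07 (SD 0.91), with quartiles of -0.39 and 0.53. Of the 65 members, 36 passed the 2-fold threshold upward and 0 downward, against 81 and 93 of the 938 other genes. Over all genes of the bin, members included, the shares were 11.7% and 9.27%. The spread among the members was thus smaller than that among other genes of the bin, at an interquartile width of 0.27 against 0.92, and it stayed smaller after the level correction, at 0.35 against 0.87. For comparison, the SD of a difference between repeated spots of a probe was 0.09 (median of 296 probes at these levels), a technical spread that leaves out differences between cultures.

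Of the 57 measured genes at or above the members' median level, 37 were members, so the members could pull the correction for level at the bright end. Each local fit spanned a share of 0.4 of the 16047 probes well above background on both arrays, so it held few members. When the trend was fitted without them, in a setting added after the data had been seen, the members' median was 0.50 with 9 higher and 0 lower by at least 2-fold (14.9% and 15.8% of all genes), and 72 of 74 were above 0. With the members in the fit, 66 were above 0.

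**Figure D2:**
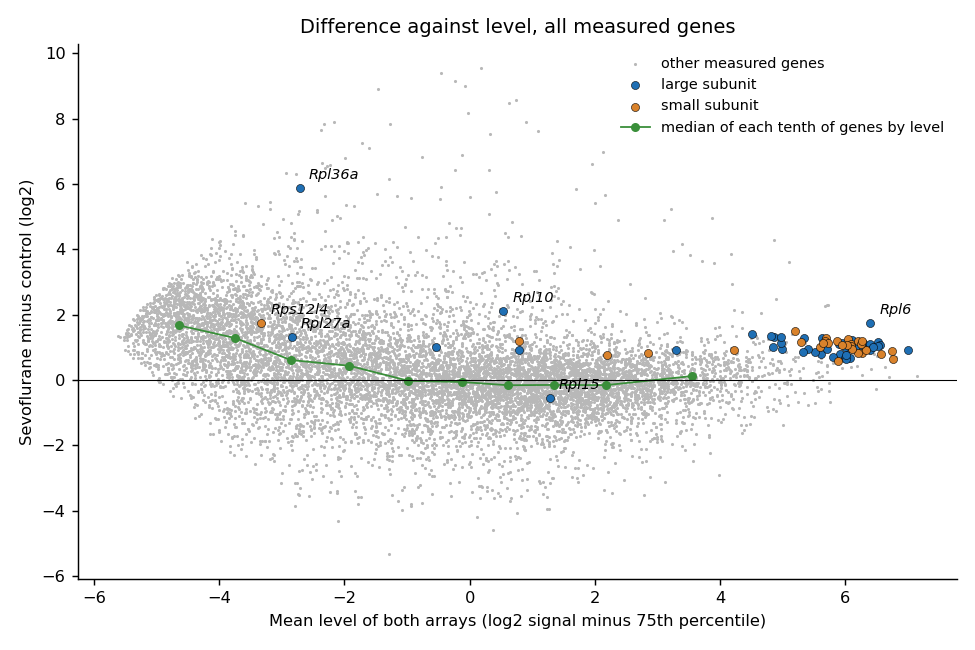
Difference (sevoflurane minus control, log2) against the mean level of both arrays for all 10028 measured genes (grey), with ribosomal protein genes of the large (blue) and small (orange) subunit and the median of each bin of 10% of genes by level (green). The members form a narrow band near 1 at the bright end, above the green line, with Rpl36a, Rpl10 and Rpl15 outside it.

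The subunits did not differ from each other by more than the spread within them. The 45 measured genes of the large subunit had a median of 1.003 (quartiles 0.91 and 1.15), with 24 higher and 0 lower by at least 2-fold. The 29 genes of the small subunit had a median of 1.09 (quartiles 0.88 and 1.19), with 18 higher and 0 lower, beside 27.9% higher and 11.5% lower of all measured genes. After the level correction the medians were 0.35 (large) and 0.47 (small), with 5 and 2 higher (14.8% of all genes), and after quantile normalization 4 and 1 were higher (13.6%). The stalk of the large subunit, which recruits elongation factors, is formed by the products of Rplp0, Rplp1 and Rplp2. Rplp0 had signals of 39186 (sevoflurane) and 38491 (control) and a difference of 0.96, and Rplp2 had signals of 63798 and 64757 and a difference of 0.91. Both Rplp1 probes were nearly as bright on either array, at 44811 and 42341 for the first and 41231 and 42355 for the second, and gave 1.01 and 0.89. The stalk genes thus moved with the rest of the subunit before any level correction, and after it Rplp0 and Rplp1 stood at 0.22 and 0.24 and Rplp2 at -0.0027, and under median scaling over all probes they were at -0.13, -0.07 and -0.18.

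Rplp1 and Rpl13a were the only members with more than 1 probe, and their probes differed little. The Rpl13a probe with 10 spots per array had signals of 31997 and 28170 (SD between spots 0.07 and 0.02 log2 units) and a difference of 1.11. The other Rpl13a probe had signals of 29725 and 27642 and a difference of 1.04. The gaps between probes were 0.08 for Rpl13a and 0.12 for Rplp1. Most members rest on 1 spot per array.

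**Figure D3:**
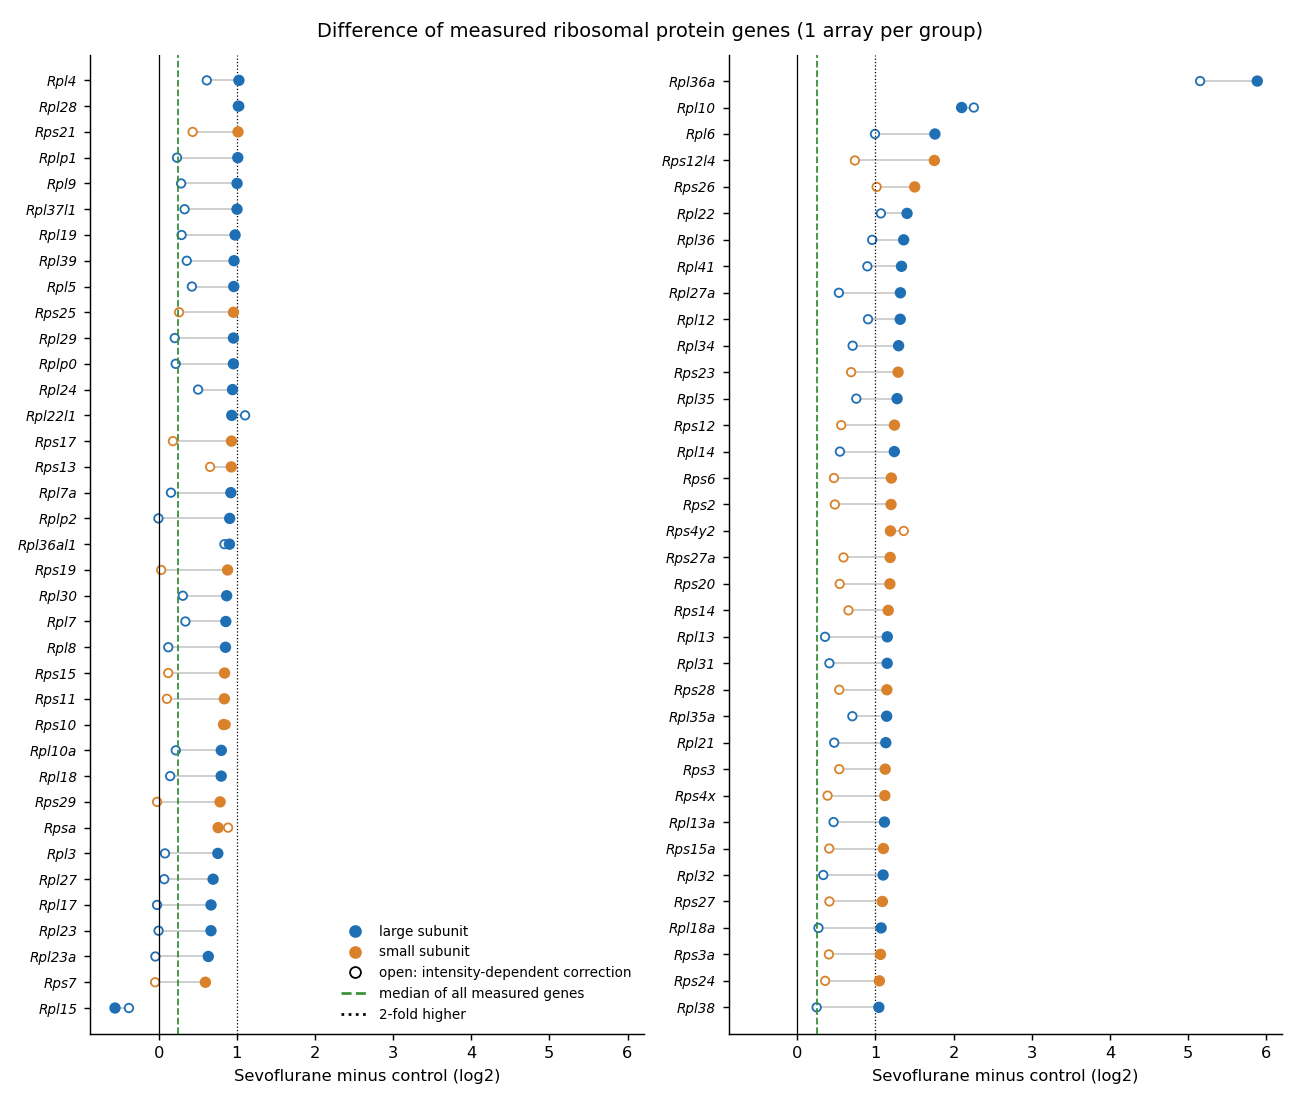
Difference of 73 of the 74 measured ribosomal protein genes (sevoflurane minus control, log2; filled points, blue for the large and orange for the small subunit), with the same gene after the correction for level (open points), the median of all measured genes (green line) and the 2-fold threshold (dotted line). Filled points lie mostly between 0.6 and 1.5, and Rpl36a at 5.89 and Rpl15 at -0.56 are the extremes.

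The member with the highest difference was Rpl36a, a large subunit gene on the X chromosome, with a signal of 425 (sevoflurane) and 13.7 (control). Its difference was 5.89, which 32 of the 10028 measured genes exceeded, and it was 5.15 after the level correction and 3.57 after normexp, a background correction that damps low signals. The control signal was well above background by the scanner software's call but low. The related Rpl36al1, by contrast, had signals of 4869 and 4952 and a difference of 0.91. Rpl10, whose product joins the large subunit in its last steps of assembly, had signals of 1090 and 484. Its difference was 2.10, and 2.26 after the level correction. Rpl6 was the highest of the bright members, with signals of 56356 and 31708 and a difference of 1.76 (0.99 after the level correction).

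Rps26, a small subunit gene whose mutation is a cause of Diamond-Blackfan anaemia, had signals of 22303 and 15016 and a difference of 1.50. Rpl22, which is dispensable for translation in many cells, had signals of 13424 and 9671 and a difference of 1.40. Rps12l4, a copy of Rps12, was dim, at 66.4 and 37.6, and its difference of 1.75 was 0.74 after the level correction. Rps12 itself was at 1.24. Rpl6, Rpl10, Rpl36a, Rps26 and Rpl22 were brighter with sevoflurane before any scaling too, at 1.78, 2.25, 31.0, 1.49 and 1.39 times the control signal. Of all members 3, Rpl36a, Rpl10 and Rps4y2, were higher by at least 2-fold with the 75th percentile, quantile normalization and the level correction alike, where 13.2% of all measured genes were, and Rpl36a (4.80) and Rpl10 (1.02) also under median scaling over all probes.

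At the other end, Rpl15 had signals of 728 and 2044 and a difference of -0.56, and it was negative in every setting run. Above it came Rps7 (signals 26206 and 32992), at 0.60, and Rpl23a (29293 and 35947), at 0.64. Rpl23 (29092 and 34858) and Rpl17 (30875 and 36984) were both at 0.67. These 4 bright genes were above the median of all genes with the 75th percentile, but each had a negative value after quantile normalization, in which they lay between -0.19 and -0.14, and under median scaling over all probes (between -0.49 and -0.42). After the level correction the 4 lay between -0.0453 (Rps7) and -0.0008 (Rpl23). Their distance from the median of the 65 bright members, 1.02, is a few times the SD between spots. Whether that distance exceeds the difference between cultures cannot be tested with 1 array per group. Rpl27 lay close above the 4, at 0.70, so they are not set apart from the other bright members.

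Of the other paralogs, Rps4x was at 1.12 (signals 40854 and 35842) and Rps4y2 at 1.19 (949 and 792). They parted after the level correction, at 0.39 and 1.36, and after quantile normalization, at 0.20 and 1.26. Before any scaling both were nearly alike, at 1.14 and 1.20 times the control signal. The parting thus comes from corrections that treat bright and dim signals differently. Rpl22l1, the paralog that can replace Rpl22 in the ribosome, was at 0.94 with signals of 872 and 869, below Rpl22 at 1.40, although after the level correction the 2 stood at 1.11 and 1.07. Rpsa, the gene of a small subunit protein that also serves as the laminin receptor, was at 0.76 (signals 2153 and 2421). Rps6, the substrate of the S6 kinases, was at 1.20 (42233 and 34977), and Rps19, the gene most often mutated in Diamond-Blackfan anaemia, at 0.88 (52915 and 54709). Rpl11 and Rpl27l2 were not well above background on either array, so no fold is given for them. The probe of Rpl11, unlike those of its partners in the ribosome, thus gave no usable value.

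Among the listed members known to bind Mdm2 or to form the particle with Rpl5, 8 of 11 were measured, with a median of 1.02, 4 higher and 0 lower by at least 2-fold, beside 27.9% and 11.5% of all measured genes. Rpl5 was at 0.96 (signals 21459 and 21011), and at -0.13 under median scaling over all probes. Of 19 genes linked to Diamond-Blackfan anaemia 17 were measured, with a median of 0.96, 8 higher and 0 lower. After the level correction 0 of the 8 and 1 of the 17 were higher by at least 2-fold (14.8% of all genes), and after quantile normalization 0 of either (13.6%). Both medians lay close to that of all members.

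Rat ribosomal protein genes have many processed pseudogenes, and the probes of genes and copies can share transcripts. The gene table lists at least 1 pseudogene entry for 71 of the 76 members, so single values are uncertain as to which copy they measure. The 42 measured members with 10 or more entries had a median of 0.96, and the 32 with fewer had 1.06. Transcripts of the copies were not analysed here.

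The members were set beside sequence features of their start sites, since they moved in a narrow band. RefSeq promoter sequences (assembly GRCr8) matched 61 of the 76 genes with 62 start sites. A C at the annotated start followed by at least 4 pyrimidines, the TOP form, was found in 33.9% of these 62 against 2.63% of 33469 promoters in the table. Allowing it to begin within 10 bases of the start gave 72.6% against 28.9%. The following windows run from 15 bases before to 15 bases from the start, 5′ to 3′ on the strand of the gene, with the tract at the start in capitals. They show the lowest bright member (Rps7), 3 of the highest (Rps26, Rpl22 and Rpl10), a stalk gene (Rplp0), and, without the tract at the start, Rpl6 and Rpl36a. They lie at chr6:50999431-50999460 (minus strand) for Rps7, chr7:1643390-1643419 (minus) for Rps26, chr5:168117946-168117975 (plus) for Rpl22, chrX:157205835-157205864 (plus) for Rpl10, chr12:46718376-46718405 (minus) for Rplp0, chr12:41011676-41011705 (minus) for Rpl6 and chrX:102059434-102059463 (plus) for Rpl36a.
Rps7: tcgcgagagctgtgtCTCTTTCTaagccgg
Rps26: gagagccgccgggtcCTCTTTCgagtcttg
Rpl22: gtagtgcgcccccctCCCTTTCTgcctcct
Rpl10: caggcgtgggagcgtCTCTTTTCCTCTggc
Rplp0: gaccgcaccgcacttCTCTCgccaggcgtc
Rpl6: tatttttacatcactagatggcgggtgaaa
Rpl36a: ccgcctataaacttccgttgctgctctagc

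The tract was found in Rps7, at 0.60, as well as in Rps26, Rpl22 and Rpl10, while Rpl36a, Rpl6 and, among the low members, Rpl23 lacked it at the start. The 21 measured members with it at the start had a median difference of 1.06, and the 37 with a single listed start site and no tract there had 1.101. With the looser form, within 10 bases, the order was the other way, at 1.09 for the 44 with it and 0.94 for the 14 without. That order held after normexp, at 0.99 with and 0.84 without, but not after the level correction or quantile normalization. For the looser form the medians were 0.47 with and 0.55 without after the level correction, and 0.30 and 0.43 after quantile normalization. For the tract at the start they were 0.41 with and 0.50 without, and 0.28 and 0.35. Other motifs were counted on both strands of the bases that run from 250 before to 50 after the start. CCGGAAG, a site form bound by Ets factors, was in 27.4% of the members' promoters against 8.75% of all. AAGATGGC, a site form of YY1, was in 8.06% against 3.17%, and TATAAA in 11.3% against 14.2%. The reverse form of the Ets site overlaps pyrimidine tracts, and 2 of the 21 tracts at the start overlapped one. A match is only a description of the letters.

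With the 75th percentile, the lists of other genes of the translation machinery had medians below that of the members. Of 20 listed elongation factors and other genes with TOP mRNAs 18 were measured, with a median of 0.72. Of these, 1 was higher and 0 lower by at least 2-fold, where 27.9% of all measured genes were higher and 11.5% lower. Pabpc1, which binds poly(A) tails, was at 1.14 and Vim, the gene of the intermediate filament protein vimentin, at 0.91. The elongation factor gene Eef1a2 was at -0.94. After the level correction the list's median was 0.17, and 14 of its 18 genes belonged, like most members, to the brightest 10%.

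The 30 measured initiation factor genes had a median of 0.15, with 2 higher and 1 lower (27.9% and 11.5% of all genes). Eif4ebp1, whose product restrains the cap-binding factor eIF4E, was higher by 1.95 (signals 6693 and 3311), while its relative Eif4ebp2 differed by -1.59 (956 and 5499). Eif3g was at 1.07 and Eif4e itself at -0.86. Genes of RNA polymerases I and III and their factors, which transcribe ribosomal RNA, had a median of 0.05 over 25 measured. Of these, 0 were higher and 0 lower, beside the same shares of all genes. Among them, Gtf3c1 was at -0.92, Polr1g at 0.86 and the polymerase III repressor gene Maf1 at -0.78, with Polr1f at 0.74 (-0.40 after the level correction).

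Ribosome biogenesis genes had a median of 0.31 over 72 measured of 105 listed, with 9 higher and 1 lower (27.9% and 11.5% of all genes). Its median was 0.32 after the level correction and 0.28 after quantile normalization, against 0.41 and 0.29 for the members. The exosome subunit gene Exosc9 was at 3.94 (signals 13473 and 1674), the importin gene Ipo7 at 3.08 (180 and 40.4), the nucleolar GTPase gene Gtpbp4 at 2.31 and Aamp at 2.03. Of the regulators of ribosomal protein synthesis, Sesn2, which restrains mTORC1, was at 2.56 and Mycn, a Myc gene that drives ribosome production in neural progenitors, at -2.35. Mnt, a Myc antagonist, was at -1.73, and Tsc1 at 1.65 (-0.03 after the level correction). That list had a median of -0.02 over 27 measured, with 5 higher and 2 lower (27.9% and 11.5% of all genes). In it 2 were higher after the level correction (14.8% of all genes) and 1 after quantile normalization (13.6%).

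The list of common reference genes also had a median above that of all genes. Of 16 listed, which include the member Rpl13a, 14 were measured, with a median of 0.79, 5 higher and 0 lower by at least 2-fold. Over all measured genes 27.9% were higher and 11.5% lower. Gusb, a lysosomal enzyme gene, was at 1.57, B2m at 1.24 and the actin gene Actb at 1.19. The list's median was 0.59 after the level correction and 0.56 after quantile normalization, both above the medians of the members in those settings.

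The mitochondrial ribosome, built from separate nuclear genes, is the machinery most like this one. Its 55 measured genes had a median of 0.46 (quartiles 0.14 and 0.75), with 5 higher and 0 lower by at least 2-fold, below the cytosolic median of 1.02. The gap is not stable to the scaling. After the level correction the medians were 0.34 (mitochondrial) and 0.41 (cytosolic), and after quantile normalization 0.26 and 0.29. Only 5 of the 55 mitochondrial genes were in the brightest 10%, against 65 of 74 cytosolic ones.

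**Figure D4:**
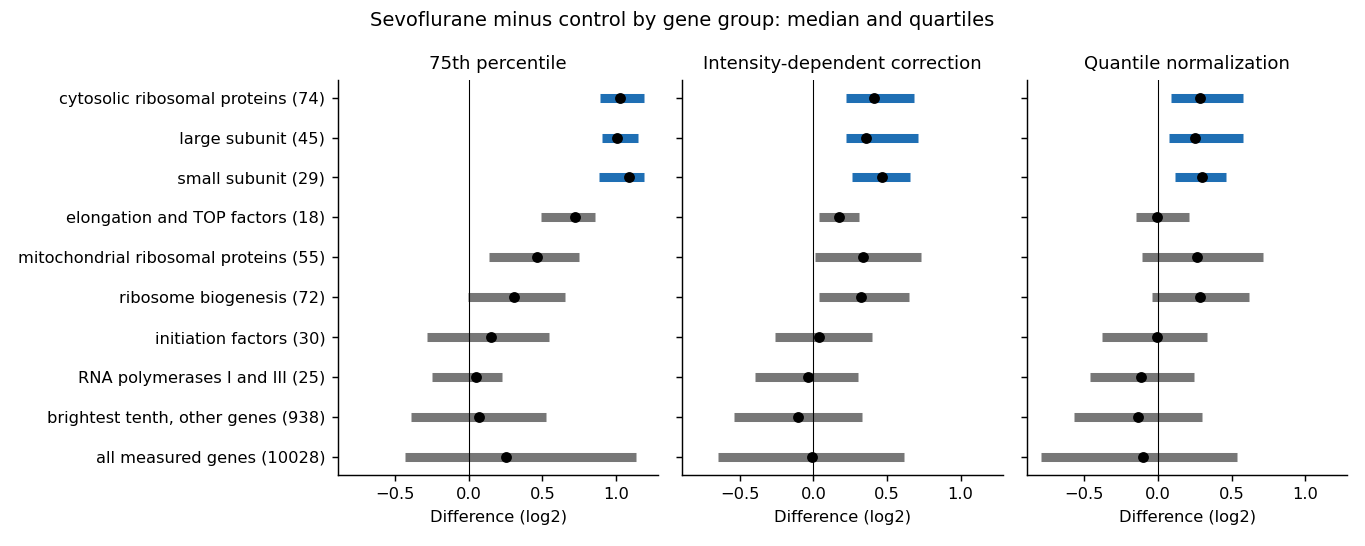
Median (black point) and quartiles (bar) of the differences (sevoflurane minus control, log2) of the ribosomal protein genes, the other ribosome and translation lists and all measured genes, with the number of measured genes, under the 75th percentile, the level (intensity-dependent) correction and quantile normalization. The cytosolic ribosomal protein genes are farthest right of the groups drawn in the left panel, their subunits aside, with a median of 1.02 against 0.46 for mitochondrial ribosomal protein genes, and the distance narrows in the other panels.

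Markers of several cell types differed between the same arrays. All 10 listed neural stem or progenitor markers were measured, with 2 higher and 2 lower by at least 2-fold, a median of -0.18 and summed signals of 36391 (sevoflurane) and 54968 (control). Of 12 neuron markers 9 were measured, with 0 higher and 6 lower, and their summed signals were 20166 and 92505. Of 10 microglia markers 8 were measured, with 0 higher and 6 lower, and summed signals of 1234 and 12053. Of 11 red cell markers 10 were measured, all higher, with summed signals of 113037 and 39269. Astrocyte markers (6 of 6 measured) had 1 higher and 2 lower, with summed signals of 1246 and 5301. Those of the oligodendrocyte lineage (6 of 7 measured) had 1 higher and 1 lower, with 1522 and 2547. After the level correction 14.8% of all genes were higher and 15.8% lower. Higher and lower were then 1 and 1 stem or progenitor, 0 and 8 neuron and 0 and 6 microglia markers. For red cell markers they were 10 and 0, for astrocyte markers 0 and 4 and for the oligodendrocyte lineage 1 and 1. In bulk RNA, more ribosomal protein RNA per cell and a changed mix of cells cannot be told apart, and the part of these cell types in the members' shift was not tested.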

How the data were processed

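The deposited scanner files give linear spot intensity, background-corrected and unscaled between arrays. The submitters' processing notes name Agilent Feature Extraction 11.0.1.1. The authors' deposited value table holds log2 intensities, with their scaling not given in the sources used here, and its member differences were within 0.0065 of quantile normalization here. Control spots were left out, and so were outlier-flagged spots, 521 of 42136 on the sevoflurane array and 580 of 42136 on the control array. Of all spots, 0 were saturated. Signals were taken to log2, averaged over spots and reduced by each array's 75th percentile over its own usable probes. A gene was represented by its brightest probe well above background on both arrays. Of 15321 mRNA probes 14274 were named through RefSeq accessions without versions. The level correction was a lowess fit (span 0.4, statsmodels 0.14.6). Normexp (limma 3.58.1, offset 50) used the median spot signal in place of the planned mean. The scalings were run on simulated arrays with a uniform shift between arrays and no trend with level. The real arrays have such a trend, so that run cannot tell which scaling is right here. Of 13 alternatives, 8 were planned and 5 were added after the data had been seen. Named members were the 6 highest and 6 lowest, those with several probes or a paralog, stalk genes and a fixed few, and of each pathway list up to 4 with the highest absolute difference. Some genes that this rule picks are not reported here. Rps12 and Rpl36al1 were named after their values were seen. The members and lists were chosen with earlier results of these data known, and the promoter motifs, the split by pseudogenes, the level bins and the per-array form of the percentile with results in view. The number of arrays limits the precision.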

Additional observations from a re-analysis of the deposited data

How the results depend on the processing

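The members' median difference (1.02) changed sign under median scaling over all probes, to -0.063, with 42 of 74 members below 0. Of the named members past 2-fold, Rplp1 (1.01) changed sign, to -0.074. This was the planned median scaling. It was at first replaced, after its result had been seen, by a median over probes well above background, and both are given. The count of members higher by at least 2-fold (42) was 2 under the planned version and 20 under the other, 7 after the intensity-dependent correction, 9 when that was fitted without members, 5 after quantile normalization, 5 in the authors' deposited table and 2 without scaling. The count lower was 1 under median scaling over all probes and 1 without scaling. The median was 0.85 under the added median scaling, 0.41 and 0.50 after the corrections, 0.29 after quantile normalization, 0.29 in the authors' deposited table, 0.093 without scaling and 1.16 with the 75th percentile over probes well above background. The distance to the median of all genes (0.77) was 0.64 after normexp, 0.42 and 0.50 after the corrections, 0.39 after quantile normalization, 0.39 in the authors' deposited table and 0.27 without a filter on dim probes. It kept its sign in every setting run, but scalings that shift each array by 1 constant could not have changed it. Taking the percentile over probes usable on both arrays, keeping flagged spots and averaging probes gave counts of 42, 42 and 41. The scaling thus sets the direction against 0, and which scale is right cannot be told from 1 array per group. No paired analysis was possible because each group has 1 array. Low signals limit Rpl36a and Rps12l4.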
